A study of Mus musculus with 18 samples.

Results

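Glyat and Keg1 are neighbouring protein-coding genes on the plus strand of mouse chromosome 19 (GRCm38, the assembly that mm10 names). The 2 genes were selected on their counts, out of 47937 genes in the deposited table, because these rose from near 0 in the induced libraries of the activator line. That rise is therefore a description here and carries no test. Glyat (ENSMUSG00000063683.12) spans chr19:12633308-12653911, and Keg1 (ENSMUSG00000024694.9) spans chr19:12695786-12719902. Their merged exons measure 4780 and 5664 bases. A gap of 41.9 kb lies between them. The other annotated genes within 300 kb of either served as context, and 29 of those 33 were in the table.

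The cells were mouse embryonic fibroblasts that carried a doxycycline-inducible dCas9, the Cas9 that binds DNA without cutting it, directed to the major satellite repeat of pericentromeric heterochromatin. The control line carried dCas9 alone and was induced with 10 ng/ml doxycycline for 24 h. The repressor line carried dCas9-KM and received 100 ng/ml for 24 h, and the activator line carried dCas9-VPR, which bears a strong transcriptional activation domain, and received 10 ng/ml for 6 h. Each line gave 3 uninduced and 3 induced libraries of total RNA, 18 in all, with 14928765 to 25262912 counts per library. The control line was not sampled at 6 h and not at 100 ng/ml, so effector, time and dose cannot be told apart between lines. Nothing in the labels says that the libraries of a group came from separate cultures, and the p-values then measure only the spread between libraries, which may be technical. Of 8 fibroblast markers, Col1a1 (8060 ± 103 CPM, SD, n = 3, uninduced activator line), Col1a2, Fn1 and Vim stood at high levels, whereas Thy1 had no count in either activator group. Levels are given as CPM, the counts of a gene relative to the TMM-scaled size of its library.

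Glyat encodes glycine N-acyltransferase, a mitochondrial enzyme of liver and kidney. It joins glycine to acyl groups activated as coenzyme A thioesters, such as benzoyl-CoA, and so turns benzoate into hippurate for excretion. The activated acyl groups come from medium-chain acyl-CoA synthetases of the Acsm family. Keg1, kidney expressed gene 1, and the adjoining Gm4952 encode related acyltransferase-like proteins.

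The start regions of the 3 acyltransferase genes are shown because these genes lie side by side and gained counts in the same libraries. Each line gives 250 bases before to 50 bases after the RefSeq start, 5′ to 3′ on the plus strand of GRCm38.p6. Capitals mark matches to TGANTCA, a loose form of the AP-1 motif in which N is any base. The windows lie at chr19:12599734-12600033 for Gm4952 (the first of its 2 listed starts), chr19:12633058-12633357 for Glyat and chr19:12695540-12695839 for Keg1.
Gm4952: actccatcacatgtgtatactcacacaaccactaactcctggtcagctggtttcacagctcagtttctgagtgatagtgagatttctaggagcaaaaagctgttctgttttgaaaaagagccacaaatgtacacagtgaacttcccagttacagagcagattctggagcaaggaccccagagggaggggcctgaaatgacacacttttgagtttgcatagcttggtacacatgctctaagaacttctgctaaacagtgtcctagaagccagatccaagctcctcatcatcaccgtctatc
Glyat: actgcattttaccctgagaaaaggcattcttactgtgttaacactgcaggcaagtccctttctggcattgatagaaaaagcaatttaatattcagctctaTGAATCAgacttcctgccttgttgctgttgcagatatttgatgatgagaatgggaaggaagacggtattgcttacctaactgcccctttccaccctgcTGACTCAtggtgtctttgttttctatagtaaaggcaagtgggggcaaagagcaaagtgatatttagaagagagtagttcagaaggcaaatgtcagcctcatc
Keg1: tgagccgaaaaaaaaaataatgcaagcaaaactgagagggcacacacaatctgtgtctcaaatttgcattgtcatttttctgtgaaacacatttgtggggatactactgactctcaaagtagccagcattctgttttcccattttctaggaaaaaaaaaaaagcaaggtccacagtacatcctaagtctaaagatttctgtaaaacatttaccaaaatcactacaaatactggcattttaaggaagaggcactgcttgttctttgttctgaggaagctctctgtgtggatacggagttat

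All 3 start regions were poor in CpG dinucleotides, with 1 in Gm4952, 1 in Glyat and 2 in Keg1, against a median of 7 over the 32851 RefSeq windows of that length. GC content was 45.3% in Gm4952, 42.0% in Glyat and 37.3% in Keg1, against a median of 52.7%, and 6.63% of windows were as low as Keg1. Motifs searched on both strands were the TATA box TATAAA (in 13.6% of all windows), the CCAAT box (37.4%), the GC box GGGCGG (35.7%), TGANTCA (7.81%) and the HNF4 motif CAAAGTCCA (0.475%). The only matches were the 2 to TGANTCA in Glyat, which begin 150 and 52 bases before the start. No match says only that these letters are not in these windows. The dCas9 was directed to the satellite repeat. The windows and the 14 annotated transcripts of the 3 genes were therefore also searched for 15-base words of 3 Gm26870 transcripts. The Gm26870 transcript with the best match to itself, of 1143 bases, repeats every 234 bases with 95.9% equal bases. None of the windows and none of the 14 transcripts of the 3 genes held a Gm26870 word, and 0.0578% of all windows did. The rest of the locus was not searched.

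In the induced activator libraries Glyat had 271, 264 and 311 counts, or 14.9, 17.6 and 15.9 CPM (16.1 ± 1.37, SD, n = 3). The other 15 libraries together held 8 Glyat counts, spread over 6 libraries with at most 3 in any one. The 3 induced activator libraries thus stood far above all others, and the ratio to those 15 libraries was 620 (exact 95% interval 313 to 1440, counting error only). Keg1 had 131, 116 and 131 counts in the same libraries, or 7.21, 7.74 and 6.70 CPM (7.22 ± 0.521, SD, n = 3). Keg1 had no count in any of the other 15 libraries. Against a floor of 3 counts over those 15 libraries, 0.0097 CPM, the ratio was 739. The exact lower 95% limit of the ratio, from the 0 counts observed, was 598 (counting error only). These are bulk libraries, in which a few cells with much of the RNA and many cells with little of it cannot be told apart.

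**Figure D1:**
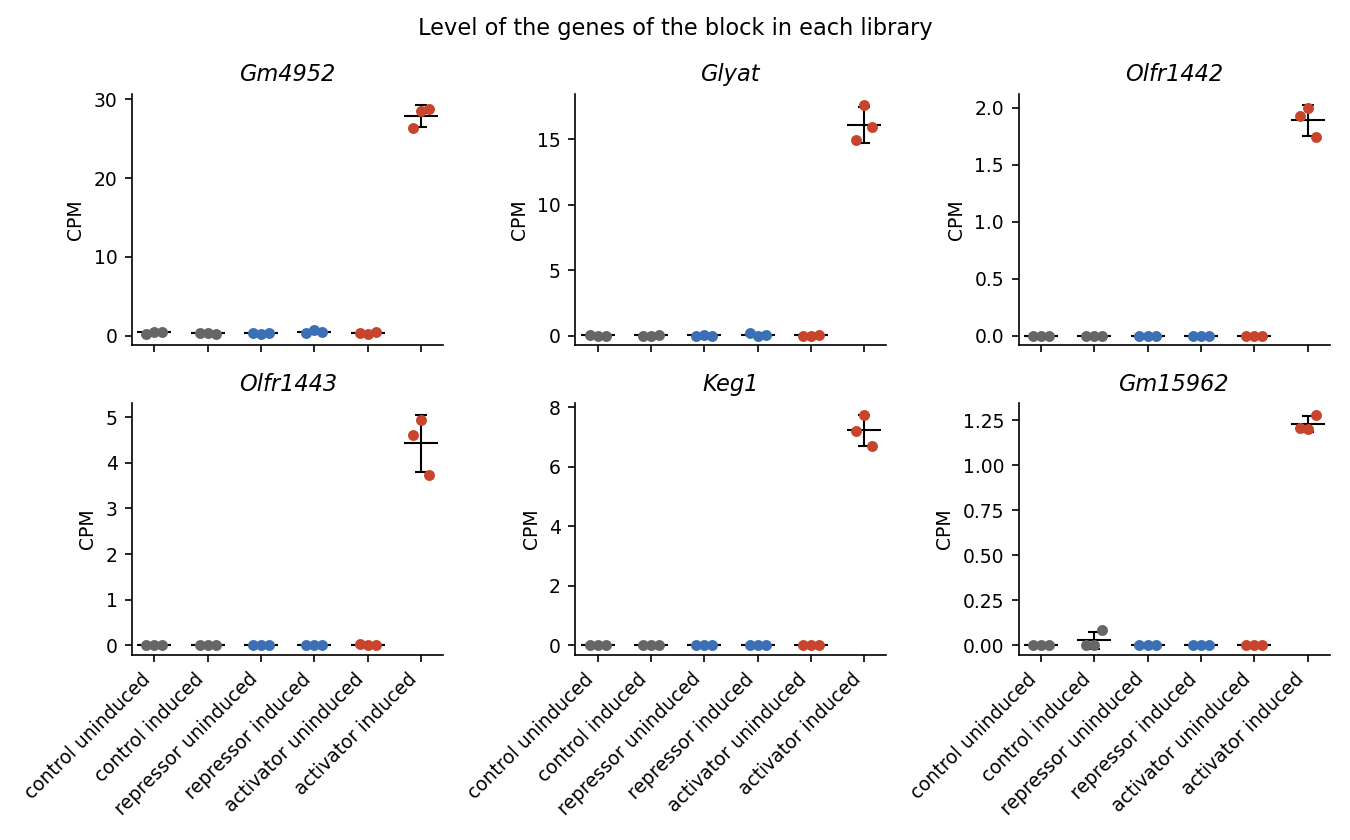
Points are CPM (y axis, a linear scale of its own for each gene) in each of 3 libraries for the 6 groups on the x axis, and black bars are mean ± SD. Glyat sits between 14.9 and 17.6 CPM and Keg1 between 6.70 and 7.74 CPM in the induced activator libraries, and both sit at or near 0 in the other groups, as do Gm4952, Olfr1442, Olfr1443 and Gm15962 beside their induced activator levels.

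Compared per kilobase of merged exon in the induced activator libraries, Glyat stood at 3.38 ± 0.287 CPM per kb and Keg1 at 1.27 ± 0.092 (SD, n = 3). The Keg1 level was 0.408, 0.371 and 0.355 of the Glyat level in the 3 libraries (0.378 ± 0.027). Glyat was thus the higher of the pair in each library, and the ratio rose to 0.486 ± 0.0346 when the longest transcript replaced the merged exons. Across genes the 2 sequences are related but distinct: the longest stretch of bases that transcripts of Glyat and Keg1 share was 35 bases. Gm4952 shared 38 bases with Keg1 and 23 with Glyat, so reads of 150 bases reach past these stretches.

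Gm4952, the acyltransferase-like gene whose end lies 5.1 kb before the start of Glyat, had the highest level of the block. It held 478, 427 and 564 counts in the induced activator libraries (26.3, 28.5 and 28.8 CPM) and 7, 6 and 7 in the uninduced ones. Unlike Glyat and Keg1 it had counts in every library, between 4 and 15 in each of the other 15. No library outside the induced activator group came near that group, whose ratio to the other 15 libraries was 81.3 (exact 95% interval 66.7 to 100.0, counting error only). Per kilobase of merged exon, Gm4952 stood at 12.4 ± 0.613 CPM per kb, 3.67 ± 0.216 times Glyat and 9.75 ± 0.93 times Keg1 (SD, n = 3 libraries).

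Between Glyat and Keg1 lie Gm24521, a small nuclear RNA gene, and the olfactory receptor genes Olfr1442 and Olfr1443, which encode odorant receptors of sensory neurons. Olfr1442 had 35, 30 and 34 counts in the induced activator libraries and none in the other 15. Olfr1443 had 84, 74 and 73 counts there and a single count in the other 15, in an uninduced activator library. Both followed the pattern of Keg1, with no overlap between the induced activator libraries and the rest. Their levels were 1.89 ± 0.135 and 4.43 ± 0.625 CPM, or 0.52 ± 0.0373 and 1.01 ± 0.142 CPM per kb. Gm24521 had 6, 4 and 5 counts in the induced activator libraries and none elsewhere. The other 13 olfactory receptor genes and pseudogenes of the window had 6 counts in all over the 18 libraries. Gm15962, annotated antisense to Keg1, had 22, 18 and 25 counts in the induced activator libraries (1.23 ± 0.0422 CPM) and 2 counts elsewhere, both in an induced control library. The longest stretch that its transcripts share with those of Keg1, on the opposite strand, was 267 bases. As the strand setting of the counting is not given, reads within the exonic overlap of this pair cannot be told apart.

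From the start of Gm4952 to the end of Keg1 the block measured 119.9 kb, and Gm15962 reached slightly past it. Before the block, over the span of Fam111a, the lowly counted A330040F15Rik and Gm16274 also had most of their counts in the induced activator libraries. Of the 10 neighbours with at least 10 counts over the 18 libraries, 8 passed the filter on low counts. In the activator induction 4 were called higher and 3 lower of these 8, while 75.3% of all 16216 tested genes were called (38.2% higher and 37.2% lower). The 4 called higher were Gm4952, Olfr1442, Olfr1443 and Gm15962. They passed the filter only through the induced activator libraries, so they had to differ and their calls are not support. A call is a Benjamini-Hochberg adjusted p below 0.05 over all tested genes in edgeR's quasi-likelihood test.

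**Figure D2:**
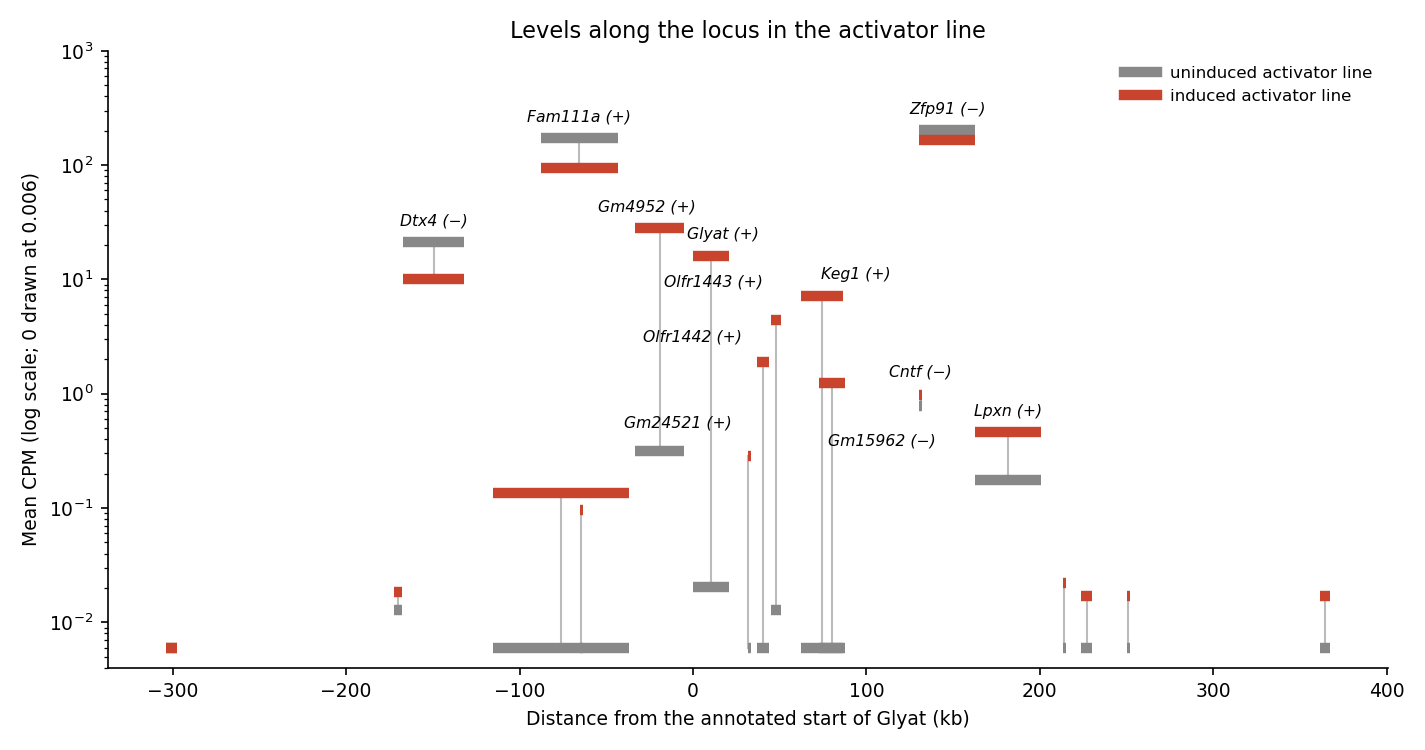
Each gene of the window with a count is drawn over its span, x being the distance in kb from the annotated start of Glyat and y the mean CPM of 3 libraries on a log axis, with 0 drawn at 0.006, grey for the uninduced and red for the induced activator line. Labels give genes with at least 10 counts and their strand. From Gm4952 to Keg1 and Gm15962 the red bars lie far above the grey ones, and at Dtx4, Fam111a and Zfp91 they lie below.

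The genes that flank the block on both sides were expressed before induction and fell in the activator line. Dtx4, an E3 ubiquitin ligase of the Deltex family linked to Notch signalling, was at 21.0, 20.6 and 22.0 CPM in the uninduced and at 9.85, 10.7 and 9.82 CPM in the induced activator libraries (log2 fold change −1.07, SE 0.08, adjusted p = 2.66e-22). Fam111a, a protease that acts at replication forks and restricts viruses, ends 10.2 kb before Gm4952 and went from 172, 169 and 171 CPM to 95.7, 93.5 and 92.9 CPM (−0.86, SE 0.03, adjusted p = 2.66e-40). Groups did not overlap for either gene, and the induced levels of both were about as tightly spaced as the uninduced ones. On the other side, 43.8 kb past the end of Keg1, lies Zfp91, a zinc finger protein with ubiquitin ligase activity. It went from 203, 201 and 200 CPM to 162, 168 and 168 CPM (−0.28, SE 0.03, adjusted p = 2.49e-14), again without overlap. The fall of Zfp91 was thus the smallest of the 3.

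Cntf, the ciliary neurotrophic factor gene, lies within the span of Zfp91 on the same strand, so its counts are uncertain. It was at 0.781 ± 0.114 CPM before and 0.974 ± 0.227 CPM after induction of the activator line (SD, n = 3), and the groups overlapped (log2 fold change 0.34, SE 0.30, adjusted p = 0.312). Lpxn, which encodes the focal adhesion protein leupaxin, had 1, 9 and 2 counts before and 11, 7 and 6 after and was removed by the filter on low counts. A330040F15Rik, a noncoding transcript across Fam111a on the opposite strand, had 3, 2 and 2 counts in the induced activator libraries of 9 in all, and the pseudogene Gm16274 had 4, 1 and 0 of 5. With no filter, edgeR called Lpxn (log2 fold change 1.27, SE 0.54, adjusted p = 0.0397), A330040F15Rik (adjusted p = 0.0134), Gm16274 (0.0453) and Gm24521 (0.000155) higher. These calls rest on few counts and on a fit that keeps all genes with a count.

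In the control and repressor lines the block stayed near 0. Keg1 had no count in any of their 12 libraries. Glyat had 1, 0 and 0 counts in the uninduced and 0, 0 and 1 in the induced control libraries, and 0, 1 and 0 against 3, 0 and 1 in the repressor line. These counts overlapped, and edgeR gave a log2 fold change of −0.11 (SE 1.52, adjusted p = 0.999) for the control and 1.80 (SE 1.25, adjusted p = 0.439) for the repressor induction, a spread that would leave a change of severalfold unseen at this depth. Gm4952 had 6, 4 and 6 counts in the uninduced and 5, 15 and 9 in the induced repressor libraries (0.98, SE 0.43, adjusted p = 0.161), and 5, 11 and 7 against 7, 7 and 4 in the control libraries (−0.49, SE 0.45, adjusted p = 0.766). Both pairs of groups overlapped.

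No neighbour was called in the control induction, in which 0.463% of all genes were called by edgeR. At an unadjusted p below 0.05 the count was also 0, and DESeq2 called 0. In the repressor induction 1 of the 8 tested neighbours was called higher and 1 lower, against 9.81% of all genes (5.21% higher and 4.59% lower). Dtx4 went from 21.2, 21.9 and 22.2 CPM to 17.7, 16.7 and 19.9 CPM (log2 fold change −0.26, SE 0.07, adjusted p = 0.00415), a call lost without the second induced repressor library (adjusted p = 0.09). Fam111a went from 163, 168 and 170 CPM to 177, 185 and 174 CPM (0.10, SE 0.03, adjusted p = 0.0173). That call was lost without the first or second uninduced (adjusted p = 0.129 and 0.0505) or the second induced repressor library (0.215), with mitochondrial scaling (0.417) and with no filter (0.0643). The sign at Fam111a in the repressor line was thus opposite to that in the activator line, where the fall was many times its SE.

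**Figure D3:**
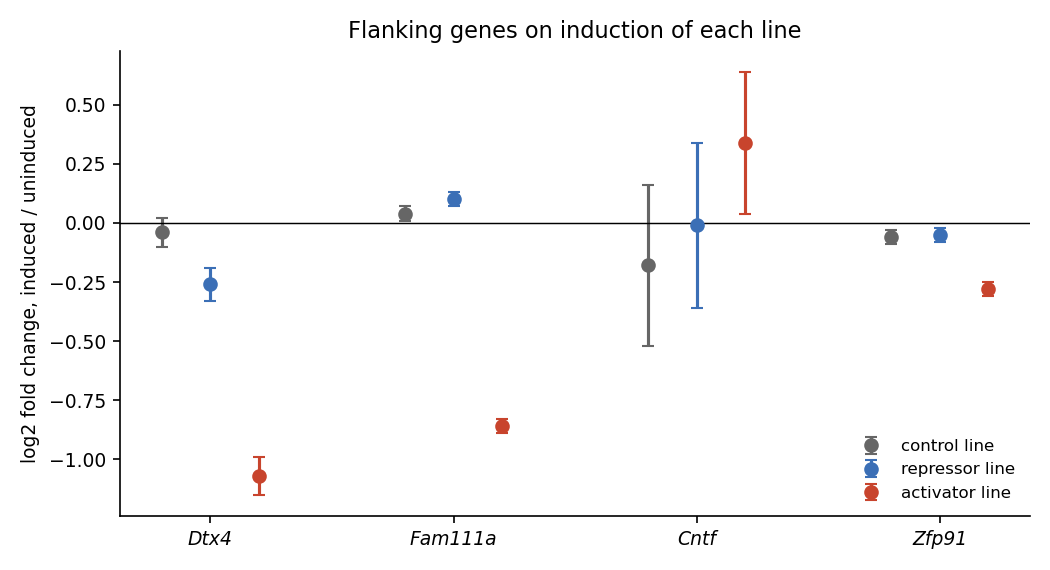
Points are log2 fold changes, induced over uninduced, with SE bars from the edgeR fit (y axis) for 4 flanking genes (x axis) in the control, repressor and activator lines. In the activator line Dtx4 and Fam111a lie near −1.07 and −0.86 and Zfp91 at −0.28, while the Cntf bars of the 3 lines overlap.

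The change on induction was also compared between the activator and the control line directly. Among the 8 tested neighbours, 4 differed in edgeR, against 63.7% of all genes. The difference of the log2 fold changes was −1.02 (SE 0.10, adjusted p = 2.39e-15) for Dtx4, −0.91 (SE 0.04, adjusted p = 2.63e-32) for Fam111a and −0.22 (SE 0.04, adjusted p = 1.59e-06) for Zfp91. Gm4952 was the fourth (7.0, SE 0.60), again through the filter. For Olfr1442, Olfr1443 and Gm15962 a control group at 0 left the edgeR difference without a usable SE. Before induction no neighbour was called by edgeR or DESeq2 between the uninduced activator and control lines (19.5% of all genes called, 0 neighbours at an unadjusted p below 0.05). None was called by either tool between the uninduced repressor and control lines (1.56% of all genes), where 1 neighbour, Fam111a, had an unadjusted p below 0.05 (0.0494). Gm4952, Olfr1442, Olfr1443 and Gm15962 stood near 0 in the uninduced groups and could hardly be called. So few neighbours cannot show whether the lines differed at the locus before induction.

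The wider pathway was followed in 17 other genes of glycine conjugation, medium-chain acyl activation and glycine supply. Of these, 3 had no count and 9 were tested. In the activator induction 7 were called higher and 1 lower, against 75.3% of all genes called (38.2% higher and 37.2% lower), and with mitochondrial scaling 4 were higher and 5 lower. The median log2 fold change of the 9 was 0.322 against 0.004 over all genes tested. Only 6 of the 9 would pass the filter without the induced activator libraries, of which 4 were higher and 1 lower. Gm4952, Baat and Acnat1 would not, so they had to be high, and the median that includes them is not support. Log2 fold changes of the 6 ran from −0.79 for Amt to 2.74 for Gnmt. Besides Gm4952, the acyltransferase genes Baat and Acnat1 outside the locus went from near 0 to a low level. Baat, which joins bile acids to glycine or taurine in liver, went from 5, 4 and 3 counts to 73, 60 and 81 (0.180 ± 0.0133 to 4.05 ± 0.0766 CPM, SD, n = 3). Acnat1, a peroxisomal fatty acid acyltransferase, went from no count to 16, 12 and 16. Both passed the filter only through the induced activator libraries. Glyatl3, a Glyat relative, had 1 count before and 5, 6 and 2 after. Acnat2, of the same list, did not rise, with no count before and 0, 0 and 1 after. The synthetases that feed Glyat stayed without counts: Acsm1, Acsm2, Acsm3, Acsm4 and Acsm5 had no count in either activator group.

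Gnmt, glycine N-methyltransferase of liver, was at 0.307, 0.372 and 0.122 CPM before and at 2.15, 1.80 and 1.84 CPM after induction of the activator line, without overlap (log2 fold change 2.74, SE 0.32, adjusted p = 3.4e-12). Smaller rises were called for the H protein of the glycine cleavage system, Gcsh (0.32, SE 0.04), for Dld, its dihydrolipoamide dehydrogenase (0.28, SE 0.04), and for Shmt2, the mitochondrial serine hydroxymethyltransferase that makes glycine from serine (0.18, SE 0.03). These 3 signs depend on the scaling: scaled to mitochondrially encoded genes they were −0.42, −0.46 and −0.56, and by total counts Shmt2 was −0.04 and Dld 0.06 without a call. Amt, the aminomethyltransferase of the same system, was at 1.46, 1.82 and 2.07 CPM before and 0.660, 1.07 and 1.28 CPM after (−0.79, SE 0.25, adjusted p = 0.00312), a call lost without the first induced activator library (−0.55, adjusted p = 0.057). Gldc, the glycine decarboxylase of that system, was below the filter, with 5, 8 and 3 counts before and 1, 0 and 1 after. Shmt1, the cytosolic counterpart of Shmt2, was not called (−0.01, SE 0.04, adjusted p = 0.798). In the control line 0 of the 9 were called by edgeR (0.463% of all genes) or DESeq2, and 0 had an unadjusted p below 0.05. In the repressor line 1 of the 9 was called, near the 9.81% of all genes, and this was Shmt2 (−0.24, SE 0.03, adjusted p = 3.72e-11). Gnmt was not called (−0.19, SE 0.45, adjusted p = 0.871).

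Because Glyat and Keg1 are genes of liver and kidney, 37 further genes of hepatocytes, kidney proximal tubule and the transcription factors of both organs were read in the same libraries. Of these, 7 had no count and 9 were tested. In the activator induction 2 were called higher and 2 lower, against 75.3% of all genes called, with a median log2 fold change of −0.172 against 0.004 over all genes tested. The higher ones were plasma protein genes. Hpx, hemopexin, went from 0.958, 0.621 and 0.486 CPM to 2.15, 2.27 and 2.30 CPM, without overlap (1.63, SE 0.25, adjusted p = 2.09e-08). Alb, albumin, went from 1, 2 and 4 counts to 39, 26 and 29 and passed the filter only through the induced libraries. The summed level of the 12 hepatocyte genes was 1.03 to 1.57 CPM in the uninduced and 5.98 to 6.66 CPM in the induced activator libraries. Ttr, Serpina1a, Fgb and Cyp2e1 had no count in either group. Below the filter, Tat had 1 count before and 31 after over the 3 libraries. Cps1 had 2 and 26, Ahsg 6 and 21, and Afp 19 and 33. Apoa1 had 0, 1 and 0 counts before and 1, 1 and 7 after, most of them in the third library. The induced control and induced repressor groups held 5 Apoa1 counts each. Apoa2 had no count before and 0, 1 and 0 after. The part of other cell types in the rise of Glyat was not tested beyond these markers.

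Of the 12 kidney genes, Lrp2, Cubn, Aqp1, Slc5a2, Slc5a12 and Slc34a1 had counts in the activator groups and Kap, Miox, Slc22a6, Slc22a8, Slc22a12 and Slc13a3 had none. Cubn was at 15.2 ± 0.281 CPM before and 13.5 ± 1.19 CPM after induction (−0.17, SE 0.08, adjusted p = 0.0548), and Aqp1, a water channel, at 1.73 ± 0.149 and 1.55 ± 0.548 CPM (SD, n = 3). Lrp2, the endocytic receptor megalin, was at 50.0 ± 0.372 before and 48.9 ± 0.353 CPM after induction (SD, n = 3, log2 fold change −0.03, SE 0.05, adjusted p = 0.517). The sum over the 12 kidney genes was 66.7 to 67.1 CPM before and 63.4 to 65.5 CPM after. Among the transcription factors, Hnf4a, Hnf4g and Prox1 had no count in either group. Foxa2 fell from 10.3, 10.4 and 11.5 CPM to 3.58, 2.74 and 4.81 CPM (−1.49, SE 0.12, adjusted p = 4.4e-18), and Nr1h4, the bile acid receptor FXR, fell from 7.19 ± 0.846 to 5.38 ± 0.284 CPM (−0.40, SE 0.12, adjusted p = 0.00144). The induced libraries held Glyat and Keg1 at 16.1 and 7.22 CPM, and the part of these transcription factors in that rise was not tested.

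In the control induction 0 of the 9 liver and kidney genes were called by edgeR (0.463% of all genes) or DESeq2, with 2 at an unadjusted p below 0.05. In the repressor induction 1 of the 9 was called, near the 9.81% of all genes, and this was Cubn, the intrinsic factor receptor cubilin (log2 fold change 0.36, SE 0.10, adjusted p = 0.0164). Without the first or the third uninduced, or the third induced, repressor library the count was 0. Among 10 markers of endothelial, immune and epithelial cells, the summed level went from 5.10 to 5.89 CPM up to 24.6 to 28.1 CPM in the activator line. Pecam1, an endothelial adhesion molecule, took most of that sum, with 21.3 ± 2.67 CPM after induction, while Cdh5 had 1 count in each activator group and Epcam none. Ptprc, a leukocyte marker, had 2, 0 and 0 counts before and 5, 6 and 10 after. Kdr, an endothelial receptor, had 2, 1 and 0 before and 6, 1 and 3 after. Cd68, another leukocyte marker, was at 4.54 ± 0.71 CPM before and 4.32 ± 0.682 CPM after (SD, n = 3) and was not called by edgeR (log2 fold change −0.03, SE 0.14, adjusted p = 0.873). Over 3 libraries the epithelial markers Krt8 and Krt18 went from 28 to 14 and from 11 to 6 counts. Cdh1 went from 8 to 13 counts and the leukocyte marker Adgre1 from 0 to 1. The 8 fibroblast markers summed to 19300 to 19600 CPM before and 21800 to 22100 CPM after, a sum carried by Col1a1, Col1a2, Fn1 and Vim. The growth factor receptors Pdgfra and Pdgfrb of the same list fell (−1.14 each, SE 0.05 each, adjusted p = 1.97e-27 and 3.63e-19). The part of these markers in the changes at the locus was not tested.

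**Figure D4:**
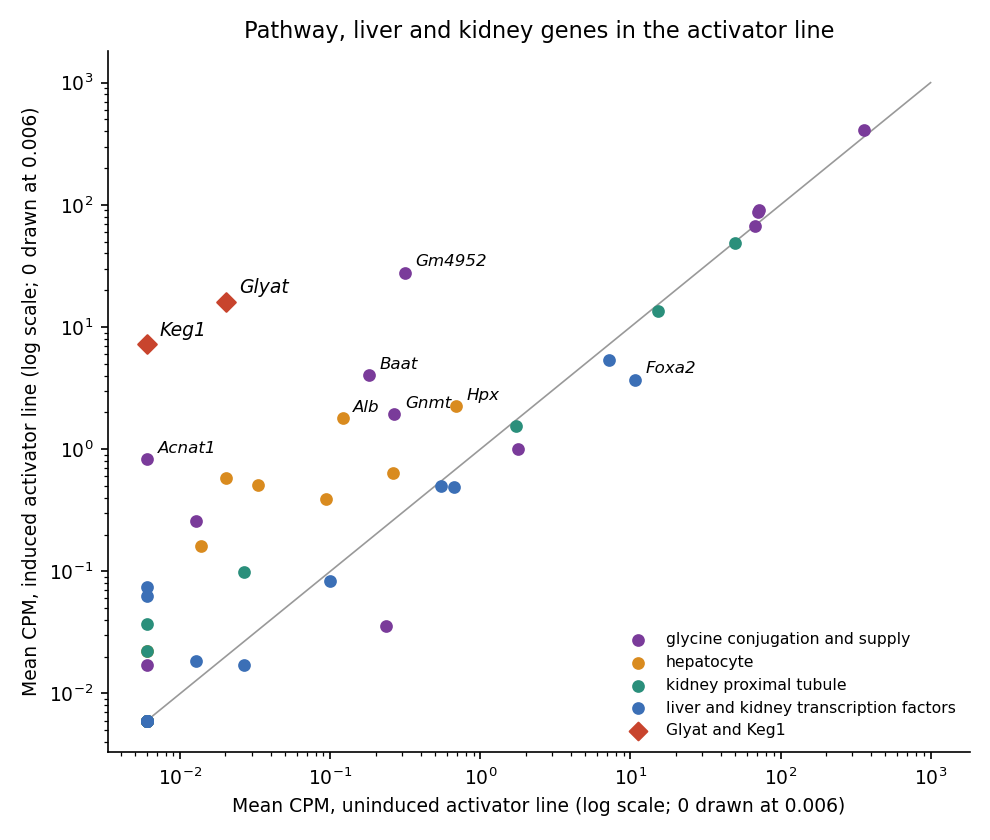
Each point is 1 gene, x its mean CPM over the 3 uninduced and y over the 3 induced activator libraries, both on log axes with 0 drawn at 0.006, coloured by list, with the line of equality in grey. Glyat and Keg1 (red diamonds, at 16.1 and 7.22 CPM after induction) lie far above the line, as do Gm4952, Baat and Acnat1, and most transcription factor and kidney genes lie on it, below it or at 0.

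The genes whose levels lay nearest to those of Glyat and Keg1 were named by distance, as a description. Distance is the root of the summed squared differences in log2 CPM over all 18 libraries, so it also grows with a difference in level. Nearest to Glyat were A930038B10Rik on chromosome 14 (distance 1.73), Myo3b on chromosome 2 (2.16), Zdbf2 on chromosome 1 (2.21), F13b on chromosome 1 (2.25) and Zfp385b on chromosome 2 (2.48). Nearest to Keg1 were Gm15319 on chromosome 8 (0.937), Gm42951 on chromosome 5 (1.16), Gm14252 on chromosome 2 (1.20), its own neighbour Olfr1443 (1.31) and Aqp9 on chromosome 9 (1.34). Keg1 itself ranked 9 for Glyat (2.82) and Glyat 66 for Keg1, so proximity in the genome and likeness in level coincided in part only. Gm4952, at a higher level than both in every group, ranked 674 for Glyat and 908 for Keg1. All of these genes shared the step between the 3 induced activator libraries and the other 15, which sets both measures. Pearson r over the 18 libraries was 0.989 between Glyat and Keg1, and by r none of the 5 nearest genes of either was kept.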

How the data were processed

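RNA was measured in 18 libraries, 3 in each of 6 groups taken from the labels. Per the labels' protocols, total RNA was treated with DNase and made into stranded, ribosomal RNA-depleted libraries read in pairs of 150 bases. The authors deposited 1 table of whole-number counts per gene, and mm10 is the build per the submitters' processing notes. Aligner, counter, annotation and strand setting: not given in the sources used here. Overlapping genes are therefore uncertain.

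Of 47937 IDs, 47310 matched GENCODE M21 (GRCm38) without their version numbers, which gave symbols and coordinates, and 18044 had no count. Promoter windows came from RefSeq (GRCm38.p6). All genes were fitted with edgeR 4.0.16 (R 4.3.3), filterByExpr, TMM scaling and the robust quasi-likelihood test with 1 coefficient per group (16216 genes, 12 residual degrees of freedom), with Benjamini-Hochberg adjustment and a threshold of 0.05. CPM use the TMM library sizes, and likeness used log2 CPM with a prior count of 2. The procedure was tested on simulated data of the activator comparison with 15605 genes, where 94% of 50 genes set to −1 and 100% of 50 set to 1 on the log2 scale were called, as were 0.0519% of unchanged genes. The simulation changed few genes, as many up as down, and none with low mean counts. In the measured activator induction 75.3% of genes were called, so the simulated rates do not carry over to it or to genes near 0. Folds against groups at 0 used a floor of 3 counts, and exact 95% intervals cover counting error only.

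The genes, lists and tests were chosen with earlier results of these data known. Named were Glyat and Keg1, genes within 300 kb with at least 10 counts, called pathway genes with Gm4952, the 4 called liver or kidney genes with the largest change, and the 5 nearest genes by distance. Other genes of the lists, Cubn among them, were named after their values were seen. Alternatives were DESeq2 1.42.0, 3 other scalings, no filter, a replicate block, fits of the compared groups only, other windows and leaving out each library.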

Additional observations from a re-analysis of the deposited data

Results flagged for a closer look

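Induction changed 4 of the neighbours of Glyat and Keg1 differently in the activator and the control line by a test of the difference itself (edgeR, adjusted over 16216 genes). The activator change minus the control change, on the log2 scale, was −1.02 for Dtx4, −0.91 for Fam111a and −0.22 for Zfp91, which were lower in all 3 induced activator libraries than in any uninduced one. For Gm4952 it was 7.0 (adjusted p = 5.91e-18), a gene that passed the filter only through the induced activator libraries. The activator line was induced for 6 h and the control line for 24 h, so effector and time cannot be told apart. Over all genes, 63.7% differed in the same test.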

How the results depend on the processing

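The count of neighbours called in the activator induction, 7, was 11 with no filter and 11 within 1 Mb, 8 with DESeq2 and 6 within 100 kb. It stayed at 7 when single libraries were left out. In the repressor induction the 2 calls became 1 with mitochondrial scaling, 1 with no filter and 0 to 2 without single libraries. The activator minus control count, 4, was 7 with DESeq2. Between the uninduced activator and control lines the count of 0 became 1, Dtx4, with mitochondrial scaling. Liver and kidney calls in the activator induction, 4, were 8 with mitochondrial scaling and 10 with no filter, and the 1 in the repressor induction was 0 with DESeq2 and 0 to 1 without single libraries. Pathway calls in the repressor induction, 1, ranged from 1 to 2 without single libraries, with 2 without the third induced repressor library.

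Glyat in the induced activator libraries, 16.1 CPM, was 14.2 by total counts and 10.3 with mitochondrial scaling, and Keg1, 7.22 CPM, was 6.33 and 4.58. The Keg1 to Glyat ratio was 0.486 by longest transcript. Mitochondrial scaling shifted the median of all genes in the activator induction to −0.74 on the log2 scale and total counts to −0.22, and turned Gcsh to −0.42, Dld to −0.46 and Shmt2 to −0.56. Shmt2 was −0.04 by total counts. Dtx4, Fam111a and Zfp91 stayed lower under each scaling. Of calls in the activator induction, those higher were 50.7% with TMM, 32.8% by total counts and 9.75% with mitochondrial scaling.

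The replicate numbers did not pair the libraries, judged by the deviations of log2 CPM from each group mean. Between same-numbered libraries of a line, r of these deviations was −0.023 to 0.025 over 9 pairs. By this r, 8 of 18 libraries matched their own number best. With the replicate block the neighbours called in the activator induction numbered 7 and the liver and kidney genes 5. Low counts limit Lpxn, Gm24521 and the Glyat comparisons outside the activator line.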

Other observations

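Glyat and Keg1 belonged to a wider set of genes with the same step, described here by thresholds chosen after the values were seen. With at least 10 counts in each induced activator library and at most 8 over the other 15 libraries, 310 genes were found, 10 of them on chromosome 19. Glyat ranked 2 and Keg1 10 among them by mean CPM in the induced activator libraries. These ranks hold for that limit only. A930038B10Rik (19.2 CPM, 10 counts over the other 15 libraries) and Zfp385b (19.3 CPM, 12 counts) stood above both genes and fell just outside it. Of the 307 with a place in the annotation, 217 had no other such gene within 100 kb, and 90 lay in 40 runs. The run with Glyat, Olfr1442, Olfr1443, Keg1 and Gm15962 held 5 genes, although Gm15962 overlaps Keg1, and another held 4 genes on chromosome 1, Gm15375 with Ugt1a10, Ugt1a9 and Ugt1a8, which share exons and conjugate glucuronic acid to drugs and bilirubin in liver and gut. The limit of 8 equals the Glyat count over those libraries, and with a limit of 7 or 4 the Keg1 run lost Glyat and held 4 genes, as did the Ugt1a run. With a limit of 16 both held 5. Gm4952, with 106 counts over the other 15 libraries, fell outside the thresholds.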
